A study of Mus musculus with 12 samples.

Results

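The direct contrast set MC3T3-E1 cells given BMP4 against MC3T3-E1 cells given TNFa, using 6 of the 12 polyA RNA-seq libraries of the series. MC3T3-E1 is an established mouse line of bone-forming precursor cells derived from calvaria (skull bone). The groups were 3 libraries from cells given BMP4 at 10 ng/mL, 3 libraries from cells given TNFa at 10 ng/mL, and, to show the direction of each difference, 3 libraries from untreated cells. The remaining 3 libraries, from cells given TNFa and then BMP4, entered the model for the estimate of spread. All groups had first been kept in 2.5% serum for 30 min. According to the treatment protocol TNFa was given for 30 min ahead of a BMP4 step of 3 h, but the sample characteristics list 3 h for either factor, which leaves the TNFa exposure uncertain. The contrast may therefore compare different exposure times, and in that case factor and time cannot be told apart. Titles of the TNFa libraries include p65, and the labels give no reason for it. Replicate 1 of every group belonged to batch 1 and replicates 2 and 3 to batch 2. Of 25124 entries in the deposited table, 11765 had a mean log2 value of at least 4 over the 12 libraries and were tested.

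BMP4 is a bone morphogenetic protein. It binds paired receptor kinases that phosphorylate Smad1, Smad5 and Smad9, and these enter the nucleus with Smad4 to switch on genes such as those of the Id family and the inhibitory Smads. TNFa is an inflammatory cytokine whose receptors activate the kinases that destroy IkB proteins, which frees NF-kB (dimers of Rela, Nfkb1 and related subunits) to switch on chemokines, adhesion molecules and its own inhibitors. In bone, BMPs drive osteoblast and cartilage differentiation, and TNFa is known for restraining osteoblast differentiation and promoting bone loss.

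The libraries held 13.7 to 15.5 M tags each, apart from 20.6 M in TNFa+BMP4 replicate 2. Levels are the authors' deposited log2 values, and differences are BMP4 minus TNFa on that scale with batch in the limma model, ± standard error. The scale compresses differences, most of all at low levels. Regressed through 0 on the authors' deposited log2 fold changes, these differences had a slope of 0.265 at mean levels of 4 to 6. The slope was 0.549 at mean levels of 6 to 8, 0.808 at 8 to 10 and 0.916 above 10. Of 11 osteoblast lineage markers, 8 were above the minimum level, while Alpl, Bglap and Ibsp were below it. The summed level of the 11 markers was 18.64 to 19.05 in BMP4 cells, 18.69 to 18.73 in TNFa cells and 18.69 to 18.84 in untreated cells. Above the minimum were 0 of 6 adipocyte, 1 of 6 endothelial and 1 of 6 muscle markers. The endothelial one, Pecam1, was higher in BMP4 cells (0.26 ± 0.08, adjusted p = 0.0154), a call lost without BMP4 replicate 2 (adjusted p = 0.0812), TNFa replicate 2 (0.0641) or TNFa replicate 3 (0.0582). Batches differed: Postn, a bone matrix protein, was at 12.38 in batch 1 and 9.12 and 9.07 in batch 2 among BMP4 libraries, and at 11.86 in batch 1 and 8.61 and 8.73 in batch 2 among TNFa libraries.

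BMP4 cells and TNFa cells differed across a broad set of genes. By limma's test with Benjamini-Hochberg adjustment, 2547 of 11765 genes passed an adjusted p of 0.05, which is 21.6% of those tested. Of these, 1193 were higher in BMP4 cells (10.1%) and 1354 were lower in BMP4 cells (11.5%). Every count of called list members below is to be read against these shares. The median difference over all tested genes was 0.01, on values deposited on a common scale that holds library medians close together. In these bulk libraries fewer cells of a type and less RNA per cell cannot be told apart. Without a batch term 702 genes were called.

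The genes lower in BMP4 cells had the larger differences. The median absolute difference was 0.29 among called genes higher in BMP4 cells and 0.36 among those lower in BMP4 cells. At least 1 log2 unit separated the groups for 60 genes higher in BMP4 cells and 106 genes lower in BMP4 cells, and at least 2 units for 2 and 20 genes. Atoh8, a helix-loop-helix transcription factor, had the largest difference upward (2.56) and Ccl2, a monocyte-attracting chemokine, the largest downward (-4.26). These ranks are on the deposited scale, which compresses differences at low levels. In the authors' deposited fold changes Sp7 (3.67) and Lef1 (3.53) exceeded Atoh8 (3.01), and Ccl5 (-7.50) lay further down than Ccl2 (-7.20). All 3 libraries of each group lay apart without overlap for 746 of the called genes higher in BMP4 cells and 923 of those lower in BMP4 cells, while 20.4% of all tested genes had no overlap. The direction was the same within both batches for 1189 of the 1193 and 1347 of the 1354. Over all tested genes it was the same for 7708. In the authors' deposited table, 863 of the 1193 and 1058 of the 1354 also had an adjusted p under 0.05. There, 0 of all the called genes had the opposite sign. The calls and the authors' comparison rest on the same libraries, so these counts of overlap, direction and sign are not independent checks.

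**Figure D1:**
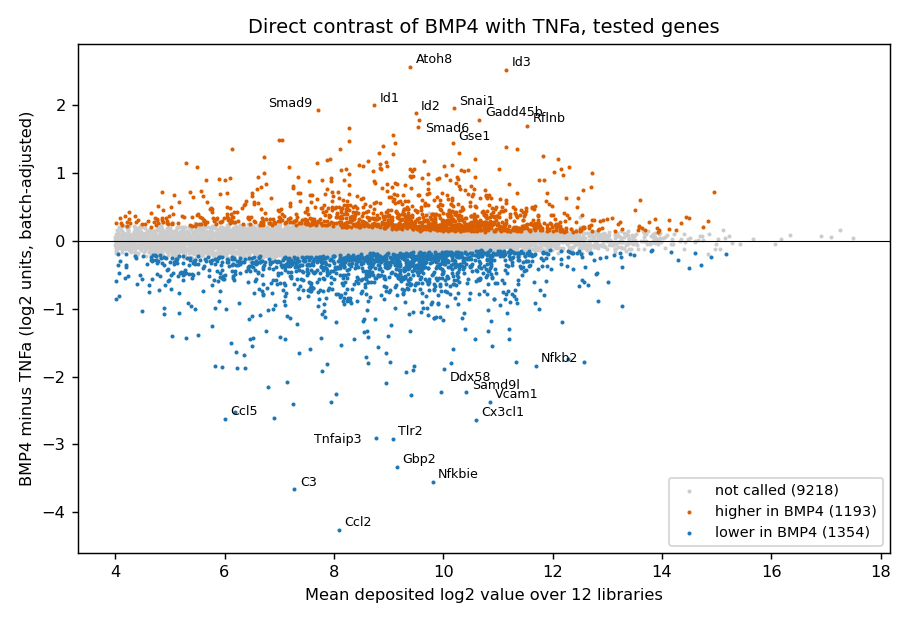
Difference between BMP4 and TNFa cells (BMP4 minus TNFa, log2 units, batch-adjusted) against the mean deposited log2 value over 12 libraries, 1 point per tested gene, coloured by call. Atoh8 and Id3 reach above 2.5 at the top, and Ccl2, C3, Nfkbie and Gbp2 lie below -3 at the bottom.

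The untreated level showed on which side each difference arose. It was placed on a scale on which 0 is the TNFa level and 1 is the BMP4 level, and called near a group within 0.25 of it. Among the 106 genes lower in BMP4 cells by at least 1 unit, untreated cells lay near BMP4 cells for 88, between the groups for 17 and beyond BMP4 cells for 1, with a median place of 0.90. Among the 60 genes higher in BMP4 cells by at least 1 unit, untreated cells lay near TNFa cells for 24, between the groups for 35 and near BMP4 cells for 1, with a median place of 0.27. The large downward differences were thus mostly in genes whose level was raised in TNFa cells. The large upward differences often joined a level above untreated in BMP4 cells to a level below untreated in TNFa cells. Against untreated cells, 12.2% of tested genes were called in BMP4 cells and 15.5% in TNFa cells; both comparisons share the 3 untreated libraries.

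**Figure D2:**
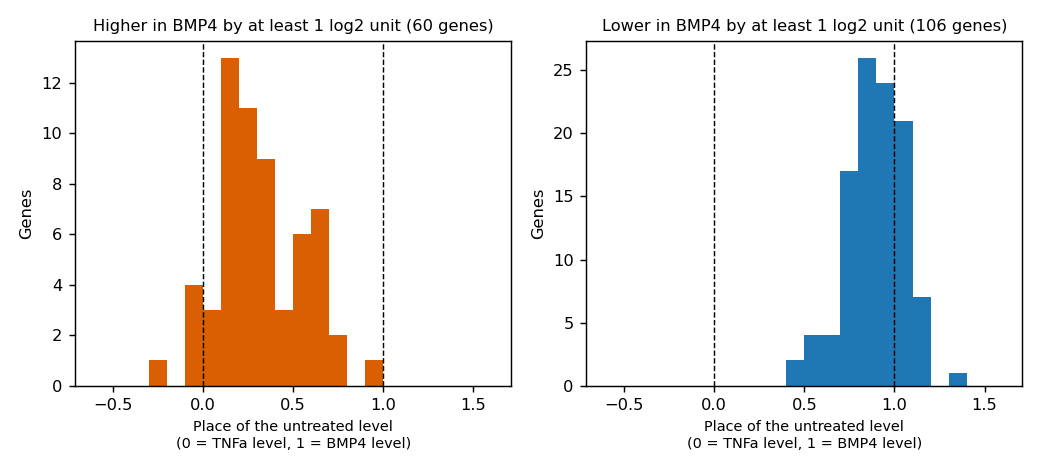
Number of genes by the place of the untreated level between TNFa cells (0) and BMP4 cells (1), for called genes at least 1 log2 unit apart. The quartiles are 0.17 and 0.51 for the 60 genes higher in BMP4 cells, and 0.80 and 1.01 for the 106 genes lower in BMP4 cells.

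Among the ligands of the family, the difference was mainly in Tgfb3, which encodes a TGF-beta ligand. Of 16 ligand genes, 8 were tested, 2 were higher in BMP4 cells (Tgfb3 and Inhba) and 2 lower (Tgfb2 and Gdf15), and the list's median was 0.00. Tgfb3 was at 12.10, 11.30 and 11.29 in BMP4 cells, 10.75, 10.39 and 10.37 in TNFa cells and 10.85, 10.34 and 10.44 in untreated cells. The BMP4 and TNFa libraries did not overlap, and the difference was 1.06 ± 0.07 (adjusted p = 2.39e-10). Bmp4 itself differed by 0.04, and limma did not call it. Inhba, an activin subunit, differed by 0.32 ± 0.10 and lost its call when any of 4 single libraries was left out (BMP4 replicate 2 or 3, TNFa replicate 1 or 2; adjusted p between 0.0857 and 0.151).

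Several receptors that BMPs use were modestly higher in BMP4 cells, and the TGF-beta receptors Tgfbr2 and Tgfbr3 were lower. Of 12 tested receptor genes, 4 were higher: Bmpr2, the type II BMP receptor (0.60 ± 0.06), Acvr1 (0.35) and Bmpr1a (0.25), which are type I receptors, and Neo1 (0.21), a co-receptor of repulsive guidance molecules. Another 3 were lower: Tgfbr3, the co-receptor betaglycan (-0.78 ± 0.08), Tgfbr2 (-0.29) and Acvr2b (-0.27). Bmpr2 was at 11.67, 11.40 and 11.40 in BMP4 cells, 10.87, 10.92 and 10.89 in TNFa cells and 10.88, 10.90 and 10.79 in untreated cells, so BMP4 cells stood above both other groups, which overlapped. Against untreated cells Tgfbr3 differed by -0.43 ± 0.08 in BMP4 cells and 0.35 ± 0.08 in TNFa cells, both called.

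The called Smad genes divided by pathway. Smad9, which transmits BMP signals, was at 8.75, 8.61 and 8.55 in BMP4 cells, 6.47, 6.94 and 6.73 in TNFa cells and 6.86, 7.29 and 7.44 in untreated cells. BMP4 libraries did not overlap the others, and BMP4 exceeded TNFa by 1.92 ± 0.11 (adjusted p = 1.88e-11). Smad1 (0.32 ± 0.09) and Smad5 (0.24 ± 0.05), the other BMP-pathway Smads, were also higher in BMP4 cells; the Smad1 call was lost without BMP4 replicate 2 (adjusted p = 0.054) or TNFa replicate 2 (adjusted p = 0.0873). Smad3, which transmits TGF-beta and activin signals, went the other way, at 9.81, 9.05 and 9.02 in BMP4 cells, 11.03, 10.13 and 10.13 in TNFa cells and 10.09, 9.35 and 9.30 in untreated cells. Within each batch the BMP4 level was the lowest and the TNFa level the highest, and the difference was -1.14 ± 0.05 (adjusted p = 9.79e-13). The other TGF-beta Smad, Smad2 (0.04), and the common partner Smad4 (0.07, 95% interval -0.05 to 0.18) were not called.

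Inhibitors of the BMP pathway were higher in BMP4 cells more often than lower. Of 17 tested members, 8 were higher, 4 were lower and 5 were not called, with a median of 0.19; the count of lower members was 2 without BMP4 replicate 1 or TNFa replicate 1. The inhibitory Smads led: Smad6 was at 10.67, 10.19 and 10.22 in BMP4 cells, 8.48, 8.68 and 8.57 in TNFa cells and 8.96, 8.99 and 9.21 in untreated cells. Its difference of 1.78 ± 0.10 (adjusted p = 6.94e-12) spanned a BMP4 difference from untreated of 1.30 ± 0.10 and a TNFa difference from untreated of -0.48 ± 0.10. Smad7 was at 10.37, 9.77 and 9.72 in BMP4 cells, 8.45, 8.37 and 8.34 in TNFa cells and 7.95, 8.07 and 8.13 in untreated cells, so TNFa cells too stood above untreated cells, by 0.34 ± 0.11 (adjusted p = 0.0326). The secreted antagonist Nog (0.55 ± 0.09) and the Smad-binding repressor Skil (0.59, adjusted p = 0.0608 with robust variances) were higher in BMP4 cells, whereas the antagonists Fst (-0.53 ± 0.08), Fstl1 (-0.29) and Bmper (-0.25) were lower. The 2 ubiquitin ligases that mark Smads and receptors for degradation were called in opposite directions, Smurf2 at 0.38 and Smurf1 at -0.34.

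Transcription regulators known to respond to BMPs held 5 of the 8 largest upward differences on the deposited scale. These were the differences of Atoh8, Id3, Id1, Snai1 and Id2, and the list was chosen with earlier results of these data known. Of 16 tested members, 12 were higher in BMP4 cells, 2 lower (Junb and Id4) and 2 not called (Klf10 and Msx2), with a median of 0.64 against 0.01 over all tested genes. The count of lower members was 1 without BMP4 replicate 1, BMP4 replicate 2 or TNFa replicate 1. Id proteins block helix-loop-helix transcription factors, and 3 of the 4 Id genes were higher. Id1 was at 9.54, 9.81 and 9.77 in BMP4 cells, 7.61, 7.88 and 7.64 in TNFa cells and 8.02, 7.94 and 8.20 in untreated cells. Id3 (chr4:136143822-136145392, plus strand) was at 11.98, 12.47 and 12.47 in BMP4 cells, 9.23, 10.09 and 10.04 in TNFa cells and 9.96, 10.59 and 10.84 in untreated cells. For both genes every BMP4 library was above every TNFa and untreated library.

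The differences were 2.00 ± 0.08 for Id1 (adjusted p = 1.1e-13), 2.52 ± 0.07 for Id3 (adjusted p = 1.53e-16) and 1.88 ± 0.06 for Id2 (adjusted p = 6.7e-16). Against untreated cells, Id1, Id2 and Id3 differed by 1.66, 1.40 and 1.84 in BMP4 cells and by -0.34, -0.48 and -0.68 in TNFa cells, all called. Id4 behaved differently, with a BMP4 level of 13.46, 13.32 and 13.37, a TNFa level of 13.88, 13.45 and 13.46 and a difference of -0.21 ± 0.07 (adjusted p = 0.0278). It was not called in either group against untreated cells.

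Atoh8, on the minus strand at chr6:72206177-72235577 (mm10, as all positions of the deposited table), was at 11.04, 10.33 and 10.43 in BMP4 cells, 7.58, 8.28 and 8.26 in TNFa cells and 8.20, 8.83 and 8.81 in untreated cells. It differed by 3.46 in batch 1 and 2.11 in batch 2. Snai1, a zinc-finger repressor of epithelial genes, was at 11.50, 11.05 and 11.08 in BMP4 cells, 9.29, 9.25 and 9.23 in TNFa cells and 9.03, 9.12 and 9.24 in untreated cells. Here the TNFa and untreated libraries overlapped, and the difference of 1.95 ± 0.08 (adjusted p = 1.1e-13) was close to the BMP4 difference from untreated (2.08 ± 0.08). The homeobox genes Dlx2 (1.66 ± 0.09), Dlx3 (0.76 ± 0.10) and Dlx5 (0.66 ± 0.08), which pattern the skull and jaw and promote bone formation, were higher in BMP4 cells too. Msx2, another homeobox gene of the skull, differed by 0.18 ± 0.08 (adjusted p = 0.102).

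**Figure D3:**
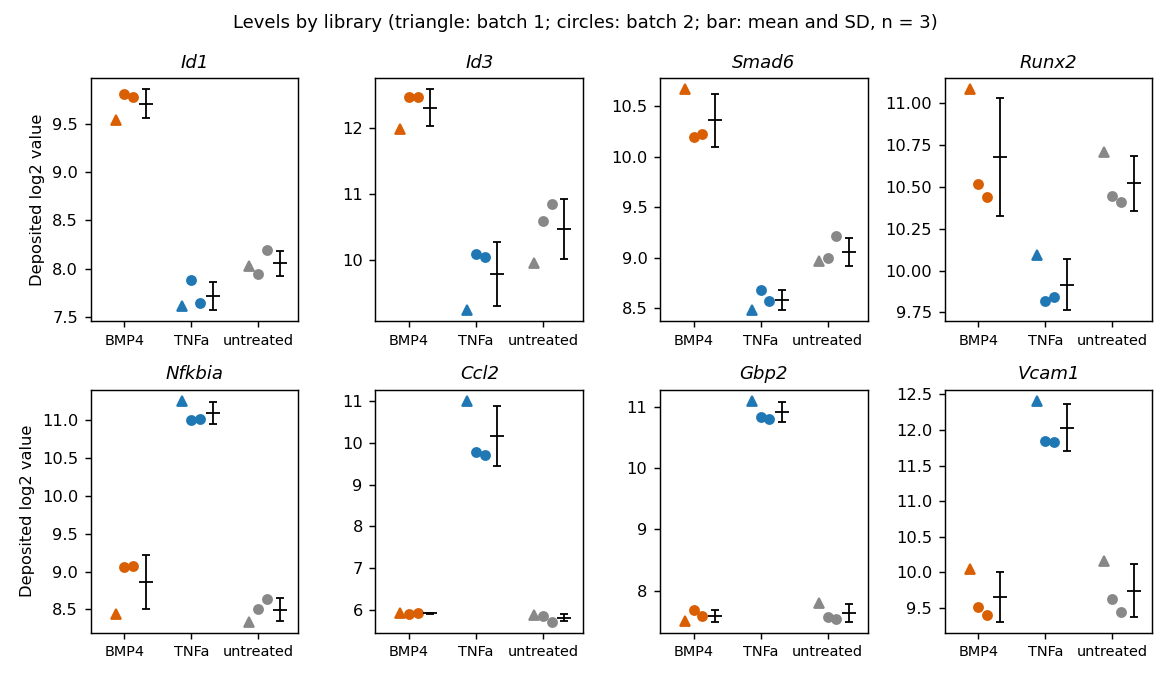
Deposited log2 value of 8 genes in each BMP4, TNFa and untreated library, with the mean and SD of 3 libraries beside the points (triangle, batch 1; circles, batch 2). Id1, Id3 and Smad6 are highest in BMP4 cells, Nfkbia, Ccl2, Gbp2 and Vcam1 are highest in TNFa cells, and Runx2 is lowest in TNFa cells.

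Transcription factors of the osteoblast lineage were predominantly higher in BMP4 cells. Of 14 tested, 10 were higher, 2 lower and 2 not called, with a median of 0.45. Runx2, the factor required for osteoblast formation, was at 11.08, 10.52 and 10.44 in BMP4 cells, 10.09, 9.82 and 9.84 in TNFa cells and 10.71, 10.44 and 10.41 in untreated cells. BMP4 and untreated libraries overlapped while TNFa libraries were below both: the difference of 0.76 ± 0.07 (adjusted p = 1.16e-08) comprised -0.60 ± 0.07 in TNFa cells against untreated, and 0.16 ± 0.07 in BMP4 cells against untreated, which was not called (adjusted p = 0.127).

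Sp7, which acts downstream of Runx2 in bone formation, was at 6.71, 5.64 and 5.45 in BMP4 cells, 4.97, 4.66 and 4.72 in TNFa cells and 5.60, 4.91 and 4.88 in untreated cells. Its difference was 1.15 ± 0.12 (adjusted p = 2.33e-07), and at this low level the authors' deposited table gives 3.67. Mef2c (1.05 ± 0.09), a MADS-box factor, and Runx1 (0.45) were also higher in BMP4 cells. The 2 members lower in BMP4 cells were Twist1 (-0.54 ± 0.08) and Twist2 (-0.37 ± 0.11), which encode proteins known for restraining Runx2; the count of lower members was 1 without BMP4 replicate 1, TNFa replicate 1 or TNFa replicate 3.

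Bone matrix genes had a smaller median difference than these regulators. Of 20 members, 10 were tested, 4 were higher in BMP4 cells and 6 were not called, with a median of 0.13, and the collagens Col1a1 (0.16) and Col1a2 (0.04) were not called. Pth1r, the parathyroid hormone receptor of osteoblasts, was the exception in size, at 9.88, 9.30 and 9.26 in BMP4 cells, 8.56, 7.94 and 8.07 in TNFa cells and 9.19, 8.59 and 8.74 in untreated cells. The 3 libraries of BMP4 cells were above all TNFa libraries (1.29 ± 0.09, adjusted p = 1.95e-10). Untreated cells stood midway, with differences from them of 0.64 in BMP4 cells and -0.65 in TNFa cells.

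Among cartilage genes, 2 of 7 tested were higher in BMP4 cells and 5 were not called, a share close to that over all tested genes. Sox9, the master regulator of cartilage, was at 12.52, 12.83 and 12.84 in BMP4 cells, 11.30, 11.56 and 11.70 in TNFa cells and 12.12, 12.28 and 12.40 in untreated cells, a difference of 1.21 ± 0.09 (adjusted p = 5.11e-10). Col2a1, the cartilage collagen, was at 15.74, 15.07 and 15.15 in BMP4 cells and 14.26, 14.77 and 14.78 in TNFa cells. Its difference of 0.71 ± 0.14 was 1.48 in batch 1 and 0.33 in batch 2, fell to 0.45 without BMP4 replicate 1 and 0.46 without TNFa replicate 1, and was not called in the authors' deposited table (adjusted p = 0.182). Of 6 chondrocyte markers, 3 were tested and Acan was listed at 0 in every library. Their summed level was 15.34 to 15.89 in BMP4 cells, 14.44 to 14.95 in TNFa cells and 14.77 to 15.05 in untreated cells. Sums were taken on the unlogged scale, where Col2a1 outweighs the other markers, so they mostly repeat its difference. What part the summed level had in the results above was not tested.

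Wnt pathway genes were higher in BMP4 cells more often than lower: of 18 tested, 9 were higher, 1 was lower (Wnt10b, -0.25) and 8 were not called, with a median of 0.18. The Wnt10b call was lost under several alternatives, among them leaving out BMP4 replicate 1 or 3 or TNFa replicate 2 or 3. The ligands Wnt11 (1.23 ± 0.08) and Wnt4 (0.92), the receptor Fzd7 (0.91 ± 0.08), the co-receptors Lrp6 (0.58) and Lrp5 (0.51) and the nuclear effectors Tcf7 (1.10 ± 0.07) and Lef1 (1.09 ± 0.10) were among those higher. Axin2, a common transcriptional target of Wnt signalling, differed by 0.05 and was not called. Wnt11 was at 7.37, 7.33 and 7.46 in BMP4 cells, 6.15, 6.14 and 6.16 in TNFa cells and 5.98, 6.25 and 6.33 in untreated cells, so TNFa and untreated cells overlapped below BMP4 cells.

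Other developmental pathways held genes higher and lower in BMP4 cells. Over all tested genes, 10.1% were higher and 11.5% lower in BMP4 cells. Of 5 tested Notch pathway genes, 3 were higher in BMP4 cells and 2 were not called. Lfng, a glycosyltransferase that modifies Notch, was at 10.47, 9.63 and 9.79 in BMP4 cells, 8.69, 8.36 and 8.53 in TNFa cells and 9.00, 8.51 and 8.78 in untreated cells (1.44 ± 0.11, adjusted p = 1.47e-09). Among 20 tested growth factor and receptor genes, 6 were higher and 6 lower. The receptors Fgfr3 (1.48 ± 0.11), Fgfr2 (1.12 ± 0.09), Pdgfrb (0.90 ± 0.06) and Pdgfra (0.58) were higher in BMP4 cells, whereas the ligands Pdgfb (-1.13) and Pdgfa (-0.50) and the receptor Egfr (-0.36) were lower. Cyp26b1, which degrades retinoic acid, was higher by 1.35 ± 0.14, with a batch 1 difference of 1.97 and a batch 2 difference of 1.04. Of 9 tested retinoid genes, 3 were higher in BMP4 cells and 1 was lower, Rdh10 (-0.36), whose call was lost without BMP4 replicate 1 (-0.16), TNFa replicate 1 (-0.23) or TNFa replicate 2 (-0.37). Without BMP4 replicate 3 the count of lower retinoid genes was 2.

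On the TNFa side, the NF-kB subunit genes were lower in BMP4 cells, and most kinases and adaptors upstream of them were not called. Of 5 NF-kB subunit genes, 5 were lower in BMP4 cells, with a median of -0.86. Relb, a subunit of the non-canonical pathway, was at 8.62, 8.27 and 8.21 in BMP4 cells, 10.87, 10.50 and 10.56 in TNFa cells and 8.09, 7.98 and 8.18 in untreated cells. Nfkb2, its usual partner, was at 10.91, 10.73 and 10.77 in BMP4 cells, 12.78, 12.56 and 12.60 in TNFa cells and 10.75, 10.67 and 10.73 in untreated cells. The BMP4 and TNFa libraries were fully apart for both genes. The differences were -2.28 ± 0.08 for Relb (adjusted p = 5.18e-15) and -1.84 ± 0.05 for Nfkb2 (adjusted p = 3.05e-16), against -0.86 ± 0.08 for Nfkb1, -0.78 ± 0.05 for Rela and -0.44 ± 0.07 for Rel. Of 14 kinases and adaptors upstream of NF-kB, 4 were lower (Ikbke, Map3k8, Tbk1 and Rnf31) and 10 were not called, a share called not far from the 21.6% of all tested genes.

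Feedback inhibitors of NF-kB showed some of the largest differences. Of 11 tested, 10 were lower in BMP4 cells and only Otulin (0.12) was not called, with a median of -1.60. Nfkbie (chr17:45555700-45563168, plus strand), which encodes IkB epsilon, was at 8.58, 7.94 and 7.94 in BMP4 cells, 12.15, 11.47 and 11.48 in TNFa cells and 8.42, 7.83 and 7.72 in untreated cells. Tnfaip3, the ubiquitin-editing enzyme A20, was at 7.45, 7.08 and 7.17 in BMP4 cells, 10.79, 9.80 and 9.81 in TNFa cells and 8.21, 7.31 and 7.33 in untreated cells. In each batch BMP4 cells lay below untreated cells for Tnfaip3 (-0.39 ± 0.11, adjusted p = 0.0212) and above them for Nfkbie (0.16 ± 0.05, adjusted p = 0.0463). The direct differences were -3.55 ± 0.05 for Nfkbie (adjusted p = 2.57e-21) and -2.90 ± 0.11 for Tnfaip3 (adjusted p = 1.56e-14). Nfkbia, which encodes IkB alpha (-2.23 ± 0.13), and Bcl3, a nuclear IkB protein (-2.09 ± 0.10), were lower in BMP4 cells too.

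The receptors through which TNFa acts divided. Tnfrsf1a, the main TNFa receptor, was at 10.73, 10.51 and 10.55 in BMP4 cells, 10.57, 10.70 and 10.75 in TNFa cells and 10.47, 10.61 and 10.67 in untreated cells. These groups overlapped and the difference of -0.07 (95% interval -0.20 to 0.07) was not called. Tnfrsf1b, the second receptor, was lower in BMP4 cells (-0.38 ± 0.09, adjusted p = 0.00263). Of 15 tested receptor and adaptor genes, 8 were lower in BMP4 cells and 7 were not called. The count of higher genes was 1 in batch 2 alone, with BMP4 and TNFa libraries alone, and without the TNFa+BMP4 group. It was also 1 in the authors' deposited comparison. Fas, the death receptor, was at 6.18, 6.15 and 5.92 in BMP4 cells, 8.42, 8.54 and 8.52 in TNFa cells and 6.17, 6.30 and 6.22 in untreated cells (-2.41 ± 0.09, adjusted p = 3.28e-14). The adaptors Traf3 (-1.14 ± 0.06), Traf2 (-0.76) and Traf1 (-0.66) were lower, while Ripk1 (-0.10), Tradd (-0.09) and Traf6 (0.06) were not called.

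Chemokines were lower in BMP4 cells. Of 18 members, 8 were tested, 7 were lower and Cxcl12 (0.12 ± 0.09) was not called, although it was called higher without BMP4 replicate 1, with a median of -2.02. Because the minimum applies to the average of the 12 libraries, a gene high in a single group can pass it for that reason. Ccl2 (chr11:82035577-82037452, plus strand) was at 5.92, 5.89 and 5.91 in BMP4 cells, 11.01, 9.78 and 9.71 in TNFa cells and 5.88, 5.84 and 5.71 in untreated cells. Its difference was -4.26 ± 0.21 (adjusted p = 2.42e-12), with -5.09 in batch 1 and -3.84 in batch 2. Against untreated cells the BMP4 level differed by 0.10 ± 0.21 and was not called. Ccl5, which attracts T cells, was at 4.95, 4.93 and 4.84 in BMP4 cells, 9.32, 6.63 and 6.63 in TNFa cells and 4.87, 4.92 and 4.82 in untreated cells. Its difference of -2.62 ± 0.38 (adjusted p = 1.78e-05) was -4.37 in batch 1 and -1.75 in batch 2. Cx3cl1, a membrane-bound chemokine, had -2.64 ± 0.12 and Ccl7, a relative of Ccl2, -2.61 ± 0.18.

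Cytokines and osteoclast regulators included genes called in opposite directions. Of 17 members, 7 were tested, 5 were lower in BMP4 cells, 1 was higher and Ptgs2 (0.23) was not called. Csf1, the growth factor of the osteoclast lineage, was at 12.15, 11.49 and 11.47 in BMP4 cells, 14.07, 13.17 and 13.23 in TNFa cells and 11.79, 11.37 and 11.37 in untreated cells. Tnfrsf11b, which encodes osteoprotegerin, a decoy receptor that blocks osteoclast formation, was at 9.86, 10.22 and 10.36 in BMP4 cells, 8.95, 9.50 and 9.45 in TNFa cells and 9.07, 9.76 and 9.67 in untreated cells. BMP4 libraries were below all TNFa libraries for Csf1 (-1.79 ± 0.07, adjusted p = 8.46e-14) and above all of them for Tnfrsf11b (0.85 ± 0.08, adjusted p = 4.17e-08). Tnfsf11, the osteoclast differentiation factor that osteoprotegerin binds, was listed at 0 in every library.

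Adhesion molecules were not uniform. Of 9 tested, 4 were lower and 3 higher in BMP4 cells. Vcam1, a leukocyte-binding adhesion molecule, was at 10.05, 9.51 and 9.40 in BMP4 cells, 12.41, 11.85 and 11.83 in TNFa cells and 10.16, 9.63 and 9.44 in untreated cells, and differed by -2.37 ± 0.05 (adjusted p = 5.58e-18). Icam1, which acts similarly, differed by -1.85 ± 0.10 at a low level, where the deposited scale compresses differences. The authors' deposited table gives -6.02 for Icam1 and -2.59 for Vcam1. The hyaluronan receptor Cd44 differed by -0.66 ± 0.06, whereas the neural and mesenchymal adhesion molecules Ncam1 (0.46) and Cdh2 (0.37) were higher in BMP4 cells. Among 12 tested matrix proteases and inhibitors, 5 were lower and Mmp2 (0.27) was higher. The count of higher genes was 2 without BMP4 replicate 2. Mmp9 led the lower genes (-1.04 ± 0.14, with -1.67 in batch 1 and -0.72 in batch 2), and the authors' deposited table gives -6.72 for it.

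Interferon-response genes were lower in BMP4 cells almost throughout: 23 of 24 tested members were called lower and Irf3 (0.04) was not called, with a median of -1.07. Gbp2, an interferon-inducible GTPase, was at 7.50, 7.68 and 7.58 in BMP4 cells, 11.10, 10.83 and 10.81 in TNFa cells and 7.81, 7.57 and 7.54 in untreated cells. BMP4 and untreated libraries overlapped far below TNFa libraries, and the difference was -3.33 ± 0.08 (adjusted p = 1.58e-17). Irf1, a transcription factor of this response, was at 8.74, 9.32 and 9.39 in BMP4 cells, 11.04, 10.89 and 10.90 in TNFa cells and 9.57, 9.74 and 9.70 in untreated cells. For Irf1, BMP4 cells also lay below untreated cells (-0.52 ± 0.10, adjusted p = 0.00187), and the direct difference was -1.80 ± 0.10. The RNA sensor Ddx58 (-1.88 ± 0.06) was lower as well.

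Antigen presentation and innate sensing genes were lower in BMP4 cells as well. Of 10 tested class I presentation and immunoproteasome genes, 10 were lower in BMP4 cells, among them the proteasome subunit Psmb10 (-2.09 ± 0.08) and the peptide transporter Tap2 (-1.84 ± 0.06). Of 13 innate sensor and complement genes, 9 were lower and 4 were not called. C3, the central complement component, was at 5.92, 5.50 and 5.61 in BMP4 cells, 10.20, 8.96 and 8.87 in TNFa cells and 5.82, 5.54 and 5.44 in untreated cells (-3.66 ± 0.15, adjusted p = 9.01e-14). Tlr2, a receptor for bacterial lipoproteins, was at 7.82, 7.51 and 7.23 in BMP4 cells, 10.90, 10.15 and 10.26 in TNFa cells and 7.75, 7.44 and 7.14 in untreated cells (-2.92 ± 0.11, adjusted p = 2.27e-14). Of 18 cytokine receptor and signalling genes, 13 were lower in BMP4 cells and 5 were not called. They included Ifngr2, a chain of the interferon gamma receptor (-1.41 ± 0.06), and Il6st, the shared signalling chain of the interleukin-6 family (-0.91 ± 0.05). Of 9 leukocyte markers, 3 were tested (Cd14 at -0.11, Cd68 at -0.05 and Lyz2 at -0.04, none called by limma), Adgre1 and Cd3e were listed at 0 in every library, and the summed level was 6.82 to 6.92 in BMP4 cells and 6.90 to 6.94 in TNFa cells.

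Promoters of the genes with large differences were searched for short motifs in RefSeq sequence of build GRCm38.p6, from 250 bases before to 50 bases after the gene start, on both strands. Of the tested genes, 9014 had a promoter whose start lay within 50 bases of the deposited transcript start. The NF-kB motif (GGG, any 2 bases, TTTCC) was present in 9 of 77 promoters of genes lower in BMP4 cells by at least 1 unit (11.7%), 0 of 39 promoters of genes higher by at least 1 unit, and 1.53% of all 9014. The interferon-response motif (GAAA, any 2 bases, GAAA) was present in 13 of the 77 (16.9%), 0 of the 39, and 3.02% of all. The Smad-related motif GGCGCC was present in 12 of the 77 (15.6%), 13 of the 39 (33.3%) and 22.9% of all, and GTCTAGAC in 0 of the 77, 1 of the 39 and 0.222% of all. The NF-kB form with AC as the middle bases, contained in the first motif, was found in 3 of the 77 and 17 of all. TGANTCA, the AP-1 motif, was present in 11.7% of the 77, 5.13% of the 39 and 4.36% of all, and TGACGTCA, the cyclic AMP response element, in 1.3% of the 77, 0 of the 39 and 3.49% of all. A match describes letters in the window and is not a measured binding site.

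Tnfaip3, Nfkbia, Casp4 and Ifngr2 are shown as chosen examples of genes lower in BMP4 cells that carry the NF-kB motif before the start. Other lower genes, such as Traf3 and Tnfrsf9, carry it too. The searched promoters of Nfkbie, Cx3cl1, Fas and Bcl3, also lower in BMP4 cells, held no match to it. Each sequence reads toward the gene from 110 bases before the start through the first 10 bases of the transcript, and capitals mark the match on either strand. The windows are chr10:19015401-19015520 (minus strand), chr12:55492638-55492757 (minus strand), chr9:5308739-5308858 (plus strand) and chr16:91546949-91547068 (plus strand). The first base of the match lies 12 bases before the start in Tnfaip3, 29 in Nfkbia, 93 and 14 in Casp4, and 75 in Ifngr2.
Tnfaip3: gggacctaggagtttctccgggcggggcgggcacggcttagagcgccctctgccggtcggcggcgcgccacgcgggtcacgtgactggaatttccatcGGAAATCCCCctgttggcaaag
Nfkbia: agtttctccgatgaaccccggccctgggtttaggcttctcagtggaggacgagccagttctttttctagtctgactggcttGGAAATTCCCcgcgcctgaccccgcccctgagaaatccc
Casp4: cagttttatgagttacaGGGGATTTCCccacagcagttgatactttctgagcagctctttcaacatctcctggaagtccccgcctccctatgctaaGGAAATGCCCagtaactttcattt
Ifngr2: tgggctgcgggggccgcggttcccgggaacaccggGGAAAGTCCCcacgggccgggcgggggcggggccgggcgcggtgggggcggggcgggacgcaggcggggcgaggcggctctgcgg
Casp4, an inflammatory caspase that senses bacterial lipopolysaccharide, was at 5.46, 5.49 and 5.38 in BMP4 cells, 7.11, 6.68 and 7.05 in TNFa cells and 5.46, 5.27 and 5.27 in untreated cells. The BMP4 libraries lay below all TNFa libraries (-1.50 ± 0.09, adjusted p = 8e-11).

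Gbp2, Gbp3 and Gbp7 are neighbouring members of the same GTPase family and are shown because all 3 carry the interferon-response motif within 60 bases of the start. The windows are chr3:142620553-142620672 (plus strand), chr3:142559934-142560053 (plus strand) and chr3:142530226-142530345 (plus strand), and capitals mark the matches, which read TTTC on the strand shown. The first base of the match lies 59 bases before the start in Gbp2, 45 and 39 (overlapping matches) in Gbp3, and 53 in Gbp7.
Gbp2: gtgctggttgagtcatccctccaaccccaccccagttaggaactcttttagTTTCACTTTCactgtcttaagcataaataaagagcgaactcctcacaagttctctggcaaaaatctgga
Gbp3: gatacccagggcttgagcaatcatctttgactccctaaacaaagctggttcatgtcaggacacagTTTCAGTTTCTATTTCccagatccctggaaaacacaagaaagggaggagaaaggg
Gbp7: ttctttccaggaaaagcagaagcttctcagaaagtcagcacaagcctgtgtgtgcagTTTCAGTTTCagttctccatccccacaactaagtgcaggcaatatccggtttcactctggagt
The 3 genes were lower in BMP4 cells by -3.33 ± 0.08 (Gbp2), -1.85 ± 0.11 (Gbp3) and -2.16 ± 0.11 (Gbp7). The authors' deposited fold changes put them in another order, at -3.94 (Gbp2), -4.54 (Gbp3) and -3.79 (Gbp7). Gbp7 was at 5.94, 5.79 and 5.80 in BMP4 cells, 7.90, 8.03 and 8.07 in TNFa cells and 5.97, 5.86 and 5.86 in untreated cells. Their transcripts resemble each other, so how the counting divided shared reads among them is not known.

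Smad6 and Smad9 are shown as 2 of the genes higher in BMP4 cells that transmit or restrain BMP signals and carry a Smad-related motif; the windows of Smad5 and Bmpr2 hold GGCGCC too. In Smad6 capitals mark GTCTAGAC, which starts 4 bases before the gene start, and in Smad9 they mark GGCGCC, which starts 51 bases before it. The windows are chr9:64022050-64022169 (minus strand) and chr3:54755472-54755591 (plus strand).
Smad6: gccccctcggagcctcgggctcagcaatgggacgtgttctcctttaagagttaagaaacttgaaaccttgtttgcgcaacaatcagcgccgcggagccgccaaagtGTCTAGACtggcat
Smad9: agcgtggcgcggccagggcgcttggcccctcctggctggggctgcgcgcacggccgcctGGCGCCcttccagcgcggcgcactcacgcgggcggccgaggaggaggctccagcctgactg

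Cell death genes were mostly not called or lower in BMP4 cells. Of 17 tested apoptosis genes, 7 were lower, 1 was higher (Tnfsf10, 0.27) and 9 were not called; the Tnfsf10 call was lost without BMP4 replicate 1, TNFa replicate 1 or TNFa replicate 2. Bid, which links death receptors to mitochondria, was at 9.21, 9.50 and 9.45 in BMP4 cells, 10.56, 10.55 and 10.58 in TNFa cells and 9.91, 9.87 and 9.84 in untreated cells. BMP4 cells lay below untreated cells and TNFa cells above them, by -0.48 ± 0.06 and 0.69 ± 0.06, and the direct difference was -1.17 ± 0.06 (adjusted p = 6.94e-12). Other lower genes were Bbc3 (-0.73) and Pmaip1 (-0.57), BH3-only activators of apoptosis, while Bax (-0.13), which permeabilises the mitochondrial outer membrane, was not called. Of 6 tested necroptosis and pyroptosis genes, 3 were lower: Casp4, Gsdmd, which forms pyroptotic pores (-1.43 ± 0.09), and Mlkl, which forms necroptotic ones (-0.40).

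Survival genes were called in both directions. Of 12 tested, 5 were lower in BMP4 cells, 2 were higher and 5 were not called. Gadd45b, a stress-response gene, was at 11.92, 11.41 and 11.46 in BMP4 cells, 10.06, 9.75 and 9.63 in TNFa cells and 9.80, 9.50 and 9.69 in untreated cells. Birc3, an inhibitor of apoptosis that acts at the TNFa receptor, was at 6.92, 6.74 and 6.68 in BMP4 cells, 8.87, 8.23 and 8.05 in TNFa cells and 7.07, 6.67 and 6.67 in untreated cells. BMP4 libraries were above all TNFa libraries for Gadd45b (1.79 ± 0.07, adjusted p = 1.14e-13) and below all of them for Birc3 (-1.60 ± 0.12, adjusted p = 7.22e-10). Bcl2l1 (0.41), which encodes Bcl-xL, was higher in BMP4 cells, and Birc2 (-0.67) and Sod2 (-0.57), the mitochondrial superoxide dismutase, were lower. Mcl1 (0.04) and Xiap (0.04) were not called.

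Genes called in opposite directions against untreated cells were named by the size of the smaller change. Higher in BMP4 cells and lower in TNFa cells were Id3, Rflnb (0.65 ± 0.12 and -1.04 ± 0.12), Slc26a2, a sulfate transporter needed for cartilage matrix (0.74 ± 0.11 and -0.64 ± 0.11), and Pth1r. Rflnb, which encodes refilin B, a filamin-binding protein, was at 12.61, 12.26 and 12.26 in BMP4 cells, 10.27, 10.87 and 10.90 in TNFa cells and 11.62, 11.75 and 11.79 in untreated cells. Slc26a2 was at 12.07, 11.86 and 11.85 in BMP4 cells, 10.12, 10.72 and 10.79 in TNFa cells and 10.98, 11.32 and 11.26 in untreated cells. For both genes all 3 groups were apart, with untreated cells between. The direct differences were 1.70 ± 0.12 (adjusted p = 6.51e-10) and 1.39 ± 0.11 (adjusted p = 3.07e-09).

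Lower in BMP4 cells and higher in TNFa cells were Afap1l2 (-0.72 ± 0.08 and 0.73 ± 0.08), an actin-associated adaptor, Samd9l (-0.67 ± 0.10 and 1.56 ± 0.10), an interferon-inducible growth restrictor, Rasgef1a (-0.56 ± 0.08 and 1.32 ± 0.08), a Ras-family exchange factor, and Dtx3l (-0.55 ± 0.08 and 1.17 ± 0.08), a ubiquitin ligase. Afap1l2 was at 10.05, 10.52 and 10.63 in BMP4 cells, 11.86, 11.83 and 11.85 in TNFa cells and 11.05, 11.11 and 11.19 in untreated cells. The 3 groups did not overlap, and the direct difference was -1.45 ± 0.08 (adjusted p = 7.56e-12). Direct differences were -2.23 ± 0.10 for Samd9l, -1.88 ± 0.08 for Rasgef1a and -1.71 ± 0.08 for Dtx3l.

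Some genes were called in the same direction against untreated cells with both factors. The direct difference among them was large for Nfkbie, Relb and Smad7, described above, and small for others. Junb, an AP-1 subunit, was at 10.27, 10.33 and 10.28 in BMP4 cells, 10.67, 10.57 and 10.77 in TNFa cells and 8.37, 8.65 and 8.95 in untreated cells. Each factor's libraries exceeded all untreated libraries, and TNFa cells exceeded BMP4 cells as well (-0.38 ± 0.09, adjusted p = 0.00297). Krt16, a stress keratin, was at 10.41, 8.34 and 8.50 in BMP4 cells, 10.38, 8.35 and 8.33 in TNFa cells and 8.15, 7.03 and 7.03 in untreated cells. BMP4 and TNFa libraries lay together within each batch, and the difference was 0.06 with a 95% interval of -0.21 to 0.34. Rgs4, a regulator of G-protein signalling, differed by 0.14 (interval -0.04 to 0.33). Carns1, an enzyme of carnosine synthesis, was below untreated cells with each factor (-0.86 ± 0.11 in BMP4 cells, -0.57 ± 0.11 in TNFa cells) and differed by -0.29 ± 0.11 (adjusted p = 0.0631). It was called with BMP4 and TNFa libraries alone (adjusted p = 0.0253), without the TNFa+BMP4 group (0.0265) and without BMP4 replicate 3 (-0.36, adjusted p = 0.0393).

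**Figure D4:**
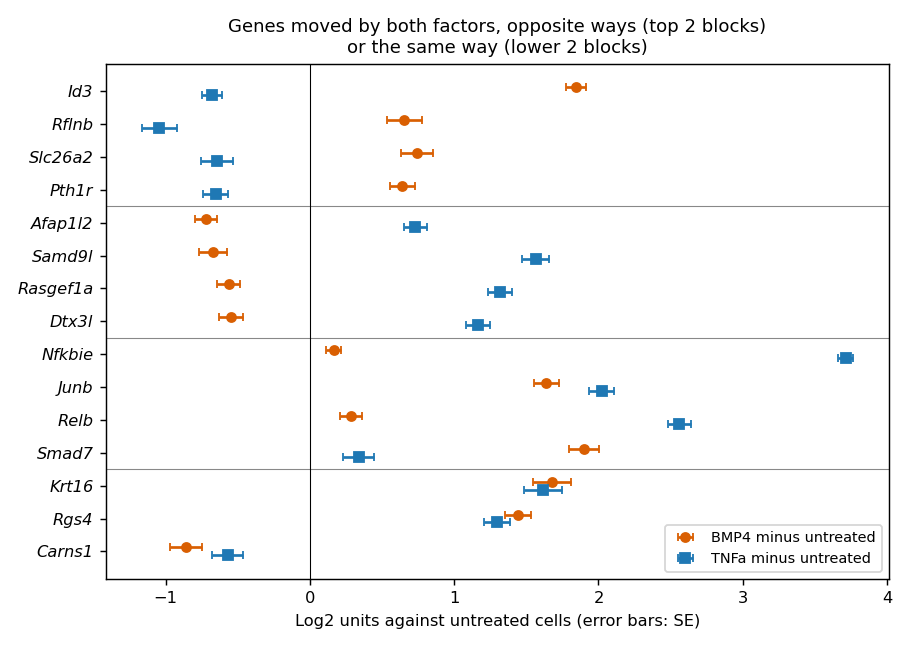
Log2 difference of BMP4 cells (orange circles) and TNFa cells (blue squares) from untreated cells, with standard errors, for genes called against untreated with both factors. In the top 2 blocks, from Id3 to Dtx3l, the signs are opposite, and in the lower 2 blocks, from Nfkbie to Carns1, they are the same.

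Immediate-early genes, which respond within minutes to many stimuli, were called in both directions: of 22, 5 were higher in BMP4 cells, 9 lower and 8 not called. The count of higher genes was 3 without BMP4 replicate 2, TNFa replicate 2 or TNFa replicate 3. Within the AP-1 family, Fos was at 7.05, 7.20 and 7.15 in BMP4 cells, 6.10, 6.39 and 6.09 in TNFa cells and 6.39, 6.39 and 6.39 in untreated cells. Fosl1 was at 8.29, 7.73 and 7.81 in BMP4 cells, 9.80, 8.74 and 8.74 in TNFa cells and 8.05, 7.57 and 7.64 in untreated cells. Fos was thus higher in BMP4 cells (0.94 ± 0.09, adjusted p = 2.53e-08) and Fosl1 lower (-1.15 ± 0.11, adjusted p = 5.15e-08), while Jun (-0.14) was not called. Of 13 tested cell cycle genes, 2 were higher in BMP4 cells, 3 were lower and 8 were not called, and 1 was higher without BMP4 replicate 3 or any single TNFa replicate. Among growth-related genes, Myc (-0.58 ± 0.06) and the G1 cyclin Ccnd1 (-0.97 ± 0.06) were lower in BMP4 cells. The mitotic genes Mki67 (-0.06), Top2a (0.05) and Cdk1 (0.03) were not called.

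Housekeeping and MAP kinase phosphatase genes were called about as often as the 21.6% of all tested genes. Of 12 housekeeping genes, 1 was higher (Ywhaz, 0.14 ± 0.04) and 1 lower (B2m, -0.44 ± 0.05, also a class I gene), and Gapdh differed by 0.01 ± 0.05; the Ywhaz call was lost without any single library of the contrast but BMP4 replicate 1, and without that library 2 genes were lower. Of 10 tested MAP kinase phosphatase and Sprouty genes, 1 was higher (Dusp1, 0.37, adjusted p = 0.0623 without BMP4 replicate 2) and 2 were lower (Dusp10 and Spred2). YAP target and oxidative stress genes were called more often than that. Of 12 YAP and TGF-beta responsive matrix genes, 3 were higher, led by Ccn1 (1.09 ± 0.09), and 4 were lower. Of 13 oxidative stress genes, 6 were lower, led by the metallothionein Mt2 (-1.33 ± 0.11), and 1 was higher.

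**Figure D5:**
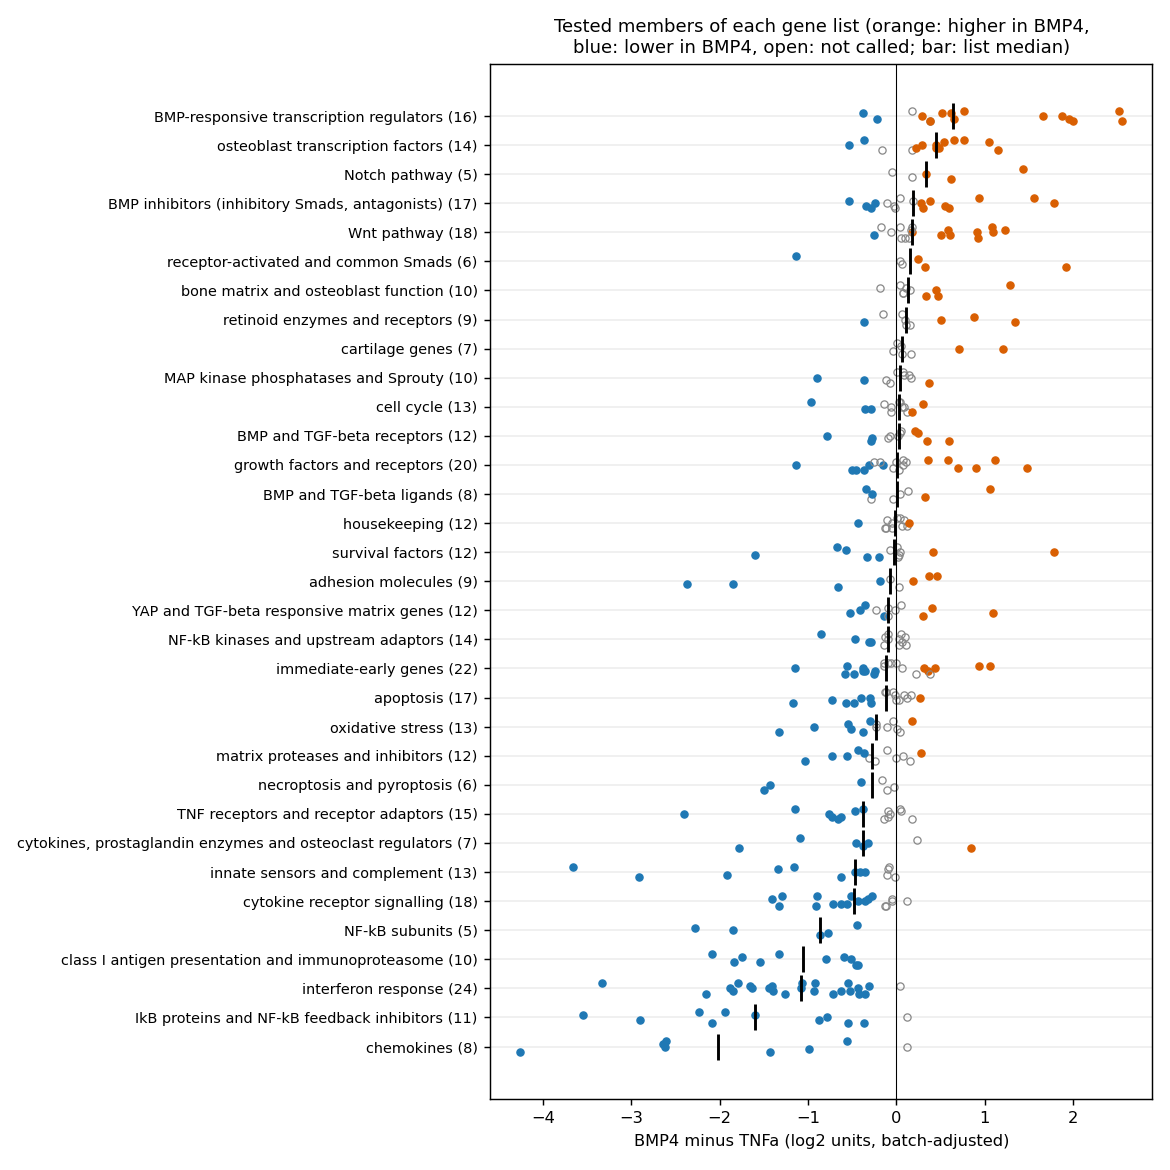
BMP4 minus TNFa difference (log2 units) of the tested members of 33 gene lists, 1 point per gene, with the list's median as a vertical bar and the number tested in brackets. Chemokines and NF-kB feedback inhibitors have the lowest medians (-2.02 and -1.60), and BMP-responsive transcription regulators (0.64) and osteoblast transcription factors (0.45) have the highest.

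By the median, cells given both factors lay closer to the group with the raised level, but genes higher in BMP4 cells varied widely. On the scale on which TNFa is 0 and BMP4 is 1, the median place of TNFa+BMP4 cells was 0.64 for the 60 genes higher in BMP4 cells by at least 1 unit and 0.17 for the 106 genes lower by at least 1 unit. Of the 60, 25 were near BMP4 cells, 30 between and 5 near TNFa cells, with quartiles of 0.47 and 0.85. Of the 106, 67 were near TNFa cells, 38 between and 1 beyond TNFa cells. Snai1 was at 11.34, 11.11 and 11.07 in TNFa+BMP4 cells, all within the range of BMP4 cells, and Ccl2 at 11.51, 9.93 and 9.97, above TNFa cells in each batch. Mef2c and Fgfr2, by contrast, were higher in BMP4 cells and had TNFa+BMP4 places of -0.00192 and 0.194, near the TNFa level. Sox9 (0.275), Rflnb (0.385), Fgfr3 (0.452) and Pth1r (0.476) lay between the groups, on the TNFa side of the midpoint. Id3 (0.902) and Smad6 (0.938) were near the BMP4 level.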

How the data were processed

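Paired-end polyA reads of 150 bp were processed by the authors. Trim Galore, HISAT2, HOMER and the mm10 build are listed, without versions, in the submitters' processing notes. Exon reads were counted with HOMER for a single transcript of each gene, and groups were compared with batch as a factor, per the file headers. The library columns were deposited by the authors as log2 values on a common scale from which batch had not been removed; which transformation made them is not given in the sources used here. The authors' deposited table also holds log2 fold changes with a p-value and an adjusted p-value for BMP4 and TNFa. Batch numbers are those of the labels; the header swaps the numbers but has the same split.

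The log2 values were modelled in limma 3.58.1 (R 4.3.3): 4 groups plus batch, moderated variances with a mean trend, 7 residual degrees of freedom, two-sided tests, Benjamini-Hochberg adjustment over all 11765 tested genes, calls at 0.05. Separate cultures are not stated for the replicates (3 per group), so a p-value here covers only the spread among these libraries, which may be technical. Depth behind single values is not recoverable from log2 values, so no counting intervals are given. The fit was tested on simulated data. Motifs were counted with Python 3.11.15. The comparison and the 33 gene lists and 6 marker lists were chosen with earlier results of these data known. Genes were named by rule: the 8 called genes with the largest differences each way whose libraries did not overlap and whose batches had the same direction, the 5 largest each way with a mean of at least 10, a fixed set of pathway genes, list members by size of change or where needed to account for a list, and, of genes called against untreated with both factors, the 4 largest with opposite signs each way and the 4 largest with the same sign, called and not called directly. Some genes that the rule names are not reported here. Pairing beyond batch was checked: the replicate 2 minus 3 differences correlated at 0.0808 for BMP4 and TNFa, 0.164 for BMP4 and untreated and 0.144 for TNFa and untreated, and not every pair of groups passed 0.1, so replicate numbers were not used as a block. Alternatives covered batch, replicate block, minimum level, scaling, variance model, samples fitted, single libraries left out and the authors' comparison.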

Additional observations from a re-analysis of the deposited data

How the results depend on the processing

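Against 2547 calls (1193 higher and 1354 lower in BMP4 cells), leaving out batch gave 702 (273 and 429), with 35 and 92 list members called in place of 85 and 163, and asking for at least 1 log2 unit as well gave 166 (60 and 106), with 24 and 54 list members. Leaving out single libraries gave 1957 to 2253 calls. The replicate block gave 2490 calls, 2454 of them shared; replicate numbers carry no pairing beyond batch in the labels. The split turned round when all libraries were given the same median (1344 higher, 1267 lower). With batch 2 alone 2693 genes were called, 2140 of them shared, and 2551 were called without the TNFa+BMP4 group, an alternative chosen after seeing the data.

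The median place of the untreated level was 0.270 for genes higher in BMP4 cells and 0.901 for genes lower. It was 0.310 and 0.923 in batch 2 alone, 0.293 for higher genes with quantile normalization and 0.878 for lower genes with a minimum of 6, and ran over 0.264 to 0.313 and 0.874 to 0.925 without single libraries. Among the 155 genes followed across settings, reversed signs occurred only for uncalled ones: in batch 2 alone Comp (-0.029), Dusp8 (-0.028) and Smad4 (-0.011), and in the authors' deposited table Comp (-0.024). Without single libraries the values ran from -0.031 to 0.044 for Comp, -0.011 to 0.238 for Dusp8, -0.0049 to 0.113 for Smad4, -0.021 to 0.165 for Krt16, -0.086 to 0.0025 for Lyz2 and -0.091 to 0.0013 for Cd68. The cause was not tested. Depth per value is unknown, and changes of weakly expressed genes are understated on the deposited scale.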

Other observations

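Genes below the minimum level were not tested here. Of 5936 such entries not at 0 throughout, the authors' deposited table has 20 higher and 31 lower in BMP4 cells at an adjusted p under 0.05. Members of the gene lists among them included interferon and chemokine genes. Cxcl9, a T cell chemokine, was at 2.32, 2.32 and 2.32 in BMP4 cells, 2.43, 2.62 and 2.69 in TNFa cells and 2.32, 2.32 and 2.32 in untreated cells, with a log2 fold change of -6.04 in the authors' deposited table. The TNFa libraries lay above all BMP4 and untreated libraries. The antiviral gene Mx1 (-4.00), its relative Mx2 (-5.56), the nucleic acid sensor Zbp1 (-2.68), the GTPase Iigp1 (-3.52) and the cytokine Il15 (-4.74) had negative log2 fold changes in the authors' deposited table. Hey1, a Notch and BMP target, was at 3.50, 3.61 and 3.63 in BMP4 cells, 3.23, 3.22 and 3.32 in TNFa cells and 3.20, 3.22 and 3.29 in untreated cells. BMP4 libraries lay above all TNFa and untreated libraries, and the authors' deposited table gives 3.08. Fgf2, a growth factor, has 2.23 in the authors' deposited table.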
